A study of Mus musculus with 6 samples.

Results

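The 9 genes described here encode enzymes that make and break down prostaglandins and receptors that read them: Ptgs1, Ptgs2, Ptges, Ptgis, Ptgds, Hpgd, Ptgfr, Ptger2 and Ptger4. They were taken by symbol from the 44788 genes of a table of RNA-seq counts from whole mouse ovaries. The table held 3 wild-type (WT, Bnc1+/+) and 3 Bnc1tr/tr ovaries from 8-week-old C57BL/6 J mice. Bnc1 encodes basonuclin 1, a zinc finger protein of germ cells and some epithelia, and the tr allele is a short frameshift deletion that brings in a premature stop. A Bnc1tr/tr mouse carries it on both copies in every cell, and the RNA came from the ovary as a whole, with its follicles, corpora lutea, stroma and vessels. Libraries held 25247770 to 34406296 counts. The study calls its replicates biological and compared littermates, but which libraries share a litter is not given in the sources used here.

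Prostaglandins are short-lived lipid signals made from arachidonic acid. Phospholipases A2 free the acid from membranes, the cyclooxygenases turn it into prostaglandin H2, and terminal synthases convert that into prostaglandins E2, D2, F2α, prostacyclin or thromboxane, which act on G protein-coupled receptors. In the ovary, prostaglandin E2 made after the luteinizing hormone surge is needed for expansion of the cumulus and for ovulation, and prostaglandin F2α acts on the corpus luteum, where it starts luteal regression.

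Of the 9 genes, 8 passed the filter on low counts, and 2 of those were lower in Bnc1tr/tr ovaries at an adjusted p under 0.05: the prostaglandin F2α receptor Ptgfr, 4.15-fold, and the lipocalin-type prostaglandin D synthase Ptgds, 2.61-fold. None of the 8 was higher past the threshold in edgeR or limma-voom, and 1, Ptgis, was higher at an unadjusted p under 0.05 and with DESeq2. The share of all genes at an unadjusted p under 0.05 was not counted. Counts at that cutoff, here and below, therefore have no background to be read against. Over all 19423 genes tested with edgeR's quasi-likelihood test and Benjamini-Hochberg adjustment, 7.06% passed, 4.19% of them as lower and 2.88% as higher in Bnc1tr/tr, where each percentage is of the genes tested. The values of the genotypes did not overlap for 4 of the 8 genes (Ptgis, Ptgds, Ptgfr and Ptger4), against 30.8% of all genes tested. The median log2 fold change of the 8 genes was 0.24, and that of all genes tested was 0.02. Unless another unit is named, values are CPM (counts of a gene scaled to the TMM-adjusted size of its library), and fold changes are Bnc1tr/tr against WT.

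**Figure D1:**
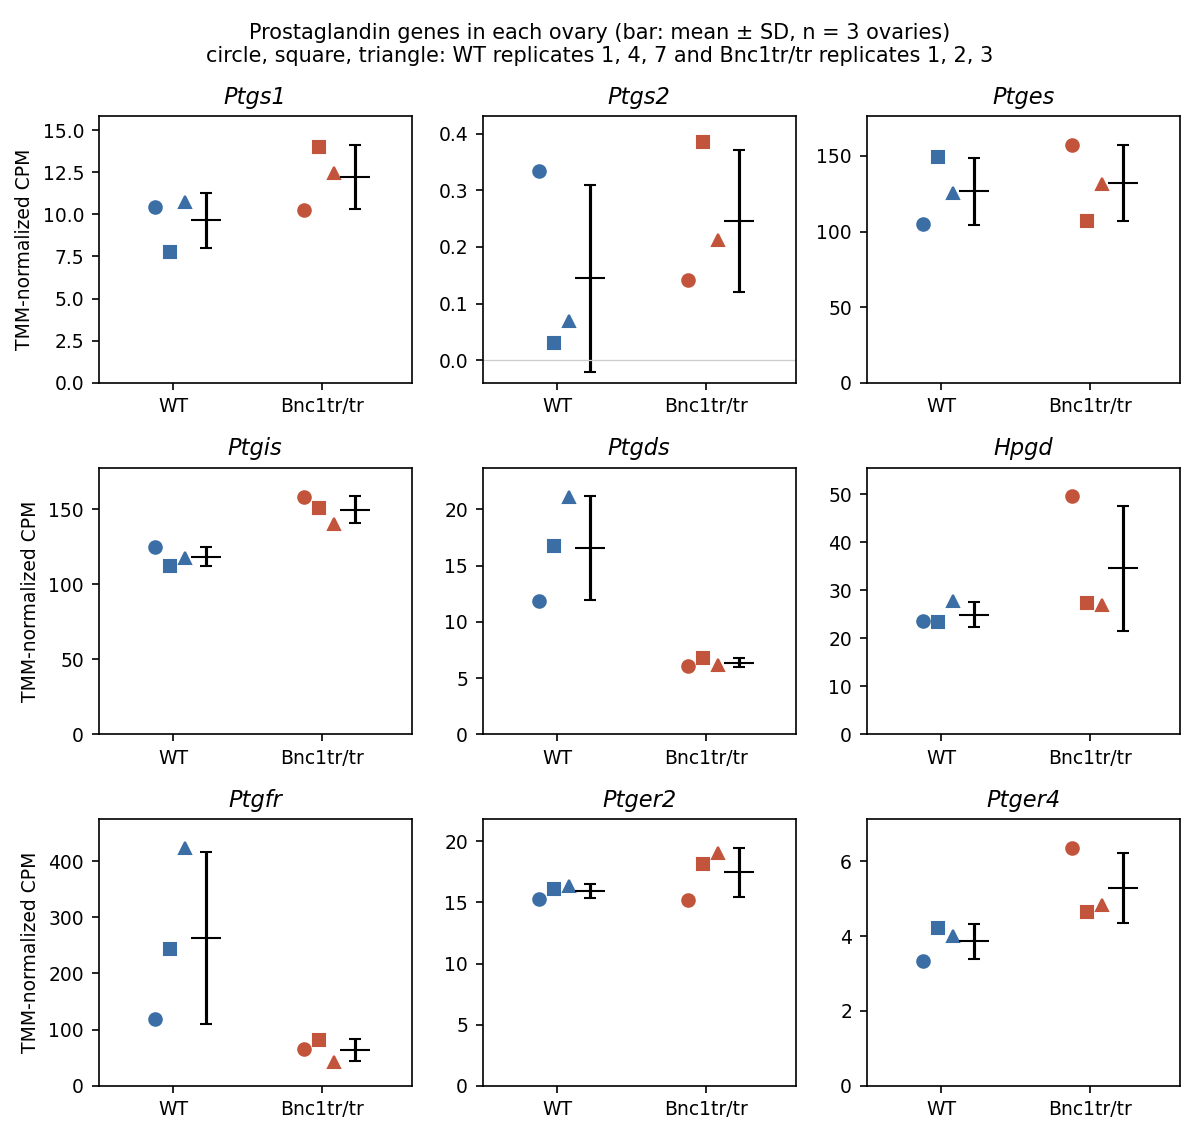
TMM-normalized CPM (y axis of each panel) of the 9 genes in the WT (blue) and Bnc1tr/tr (red) ovaries, 1 symbol per library, with the mean and SD of 3 ovaries beside them. Ptgds and Ptgfr lay lower in all 3 Bnc1tr/tr ovaries than in any WT ovary, Ptgis and Ptger4 lay higher in all 3, and Ptgs2 stayed under 0.4 CPM in every ovary.

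Both cyclooxygenases were low in these ovaries. Ptgs1, the constitutive enzyme, stood at 10.4, 7.76 and 10.8 CPM in WT replicates 1, 4 and 7, and at 10.24, 14.01 and 12.4 CPM in Bnc1tr/tr replicates 1, 2 and 3. The genotypes overlapped, and the log2 fold change of 0.34 (SE 0.18, 95% interval -0.06 to 0.75) did not pass the test (adjusted p = 0.280). Ptgs2, the inducible enzyme that granulosa cells switch on after the luteinizing hormone surge, had 9, 1 and 2 counts in WT and 4, 10 and 6 counts in Bnc1tr/tr ovaries. These counts fell under the filter, and a difference was not detectable at this depth: in the fit without a filter the log2 fold change was 0.79 with a 95% interval of -0.95 to 2.54 (adjusted p = 0.645). Other genes of the ovulatory response were at mixed levels. Tnfaip6, which builds the cumulus matrix, stood at 0.5004 to 0.786 CPM over the 6 ovaries, Areg at 0 to 0.775 CPM and Ereg, like Areg an epidermal growth factor receptor ligand, at 0.517 to 1.04 CPM. Adamts1, a protease that cuts the cumulus matrix, was much higher, at 34.8 to 97.5 CPM. None of the 6 tested of 8 cumulus and surge markers passed in edgeR or limma-voom, and 1 was lower at an unadjusted p under 0.05 and with DESeq2.

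Among the terminal synthases Ptgds, Ptges and Ptgis, Ptgds fell, while Ptges and Ptgis made up the larger part of their summed CPM. Other terminal synthases of the pathway are left out of this comparison and are described below. Ptges (chr2:30889471-30929863 of GRCm38), the microsomal prostaglandin E synthase, stood at 105, 149 and 126 CPM in WT and at 157, 107 and 131 CPM in Bnc1tr/tr ovaries. Its ranges overlapped almost entirely, and the log2 fold change was 0.06 (SE 0.17, 95% interval -0.33 to 0.45, adjusted p = 0.867). Ptgis, the prostacyclin synthase (chr2:167191805-167240604), stood at 125, 112 and 118 CPM in WT and at 158, 151 and 140 CPM in Bnc1tr/tr ovaries. Every Bnc1tr/tr value lay above every WT value, but the difference was small next to the threshold, with a log2 fold change of 0.34 (SE 0.08, adjusted p = 0.0550). Ptgis passed with library sizes in place of TMM factors (log2 fold change 0.44, adjusted p = 0.0230) and with DESeq2 (0.34, adjusted p = 0.0101). The exons of Ptgis share 156 bases with an antisense transcript, 1110018N20Rik, and the counting is not stated to use strand.

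Ptgds, the lipocalin-type synthase that makes prostaglandin D2, had the lowest adjusted p of the 8 tested genes. It stood at 11.9, 16.7 and 21.1 CPM in WT (16.6 ± 4.61, SD, n = 3) and at 6.12, 6.81 and 6.13 CPM in Bnc1tr/tr ovaries (6.35 ± 0.397). The 3 Bnc1tr/tr ovaries were close to each other and under every WT ovary, and the WT ovaries were spread more widely. The log2 fold change was -1.38 (SE 0.21, 95% interval -1.87 to -0.90, adjusted p = 0.00993). The call was lost without WT replicate 4, where the log2 fold change was -1.39 and the adjusted p was 0.0616. Hpgds, the hematopoietic enzyme for the same product, lay at 1.35 to 3.35 CPM over the 6 ovaries and did not pass (log2 fold change -0.06, adjusted p = 0.936). The luteal and endothelial markers described with the receptors were lower in the same Bnc1tr/tr ovaries, and their part in the Ptgds difference was not tested.

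The gene spans chr2:25466709-25470046 of GRCm38 on the minus strand, and the sequence just before its RefSeq start is printed here, with that of Ptgfr, because these were the genes that passed the test and both fell. The windows come from RefSeq on GRCm38.p6 and were trimmed to leave out annotated exon bases. For Ptgds this is chr2:25469843-25469999, 157 bases ending 93 bases before the RefSeq start, inside the first intron of the longest annotated transcript. For Ptgfr it is chr3:151837631-151837778, 148 bases ending 102 bases before the RefSeq start and next to the outermost exon of the annotation. Capitals mark E-boxes (CANNTG), the letters that basic helix-loop-helix factors read.
Ptgds: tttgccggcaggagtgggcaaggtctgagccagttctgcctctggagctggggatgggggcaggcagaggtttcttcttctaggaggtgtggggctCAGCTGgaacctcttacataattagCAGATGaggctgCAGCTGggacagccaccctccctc
Ptgfr: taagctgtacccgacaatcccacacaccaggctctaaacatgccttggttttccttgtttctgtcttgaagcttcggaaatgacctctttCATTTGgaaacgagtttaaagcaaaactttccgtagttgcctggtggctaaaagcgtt
Ptgds held 3 E-boxes and Ptgfr held 1, and 50.8% and 48.8% of 32851 promoter windows of the same lengths held at least 1, so the motif is common. The other motifs searched, on both strands like the E-box, occurred in neither window: the Nr5a motif AAGGTCA, the GC box GGGCGG, the cAMP response element TGACGTCA, the TEAD motif GGAATG and the TATA box TATAAA. The base composition differed, with 59.2% G and C for Ptgds and 43.9% for Ptgfr.

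Hpgd encodes 15-hydroxyprostaglandin dehydrogenase, which starts the breakdown of prostaglandins E2 and F2α. It stood at 23.6, 23.4 and 27.9 CPM in WT and at 49.6, 27.3 and 26.9 CPM in Bnc1tr/tr ovaries. Bnc1tr/tr replicate 1 stood apart and the other ovaries overlapped. The log2 fold change of 0.47 (SE 0.24, 95% interval -0.08 to 1.02) did not pass (adjusted p = 0.269), and without that replicate it was 0.12 (adjusted p = 0.570). The same ovary had the highest summed level of 6 adipocyte markers, 245 CPM, against 14.05 to 141 CPM in the other 5. Of these markers 1, Plin1, passed as higher in Bnc1tr/tr, where 2.88% of all genes tested did. Bnc1tr/tr replicate 2 had 141 CPM of these markers and 27.3 CPM of Hpgd. Replicate 1 also had the lowest summed level of the 12 luteal markers described with the receptors, 7603 CPM. The part of these markers in the Hpgd level was not tested.

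The largest fold change among the 8 tested genes was that of Ptgfr, the receptor of prostaglandin F2α, which is found above all on luteal cells. It stood at 119, 244 and 424 CPM in WT replicates 1, 4 and 7 (262 ± 153, SD, n = 3), and at 65.2, 81.9 and 42.5 CPM in Bnc1tr/tr replicates 1, 2 and 3 (63.2 ± 19.7). The genotypes did not overlap, but the WT ovaries differed more among themselves than the lowest WT ovary did from the highest Bnc1tr/tr ovary. The log2 fold change was -2.05 (SE 0.44, 95% interval -3.08 to -1.03, adjusted p = 0.0349). In each fit that left out 1 ovary the gene was lower, by a log2 fold change of -1.53 without WT replicate 7 to -2.41 without WT replicate 1. The call held without WT replicate 1 (adjusted p = 0.0143) and was lost without WT replicate 4 (0.123), WT replicate 7 (0.0895) and Bnc1tr/tr replicates 1 (0.0786), 2 (0.0549) and 3 (0.1002), and in the robust edgeR fit (0.0841).

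Luteal markers were also lower in Bnc1tr/tr ovaries. Of 12 luteal markers, 9 were lower and none was higher, where 4.19% of all genes tested were lower. The summed level of the 12 was 24485, 29445 and 28366 CPM in WT against 7603, 13161 and 11615 CPM in Bnc1tr/tr ovaries. None of the 12 was at 0 in any ovary, and Parm1, Akr1c18 and Fdx1 did not pass. Lhcgr, the luteinizing hormone receptor, had a log2 fold change of -3.01 (SE 0.16, adjusted p = 0.000235), and Cyp11a1, which makes pregnenolone from cholesterol, one of -1.52 (SE 0.29, adjusted p = 0.0261). In bulk tissue, fewer luteal cells and less Ptgfr RNA per luteal cell cannot be told apart. As a ratio of counts within each library, Ptgfr to Cyp11a1 was on the log2 scale -6.24, -5.45 and -4.67 in WT and -4.92, -5.88 and -6.50 in Bnc1tr/tr ovaries. These ratios overlapped, and their means differed by -0.31 (exact two-sided permutation test, p = 0.7, where 0.1 is the smallest p that 3 against 3 ovaries allow). Such a ratio depends on the luteal gene used, since the log2 fold change was -0.72 for Hsd3b1, -1.52 for Cyp11a1 and -3.01 for Lhcgr. The part of the luteal markers in the Ptgfr difference was not tested.

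The spread of Ptgfr among WT ovaries was shared by other luteal genes, picked after their values were seen. Sfrp4 stood at 735, 1653 and 2263 CPM in WT replicates 1, 4 and 7, in the same order as Ptgfr. Hsd17b7 stood at 415, 776 and 999 CPM, and Akr1c18, which breaks down progesterone in the regressing corpus luteum, at 12.2, 49.2 and 102 CPM. Cyp11a1 was much more even, at 9054, 10627 and 10793 CPM. This order did not carry over to the Bnc1tr/tr ovaries, where Ptgfr was highest in replicate 2. Akr1c18 was also highest there (6.72, 71.8 and 17.4 CPM in replicates 1, 2 and 3), but Hsd17b7 was lowest there (91.2, 28.4 and 34.8 CPM), and Sfrp4 was highest in replicate 1 (387, 243 and 168 CPM).

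**Figure D2:**
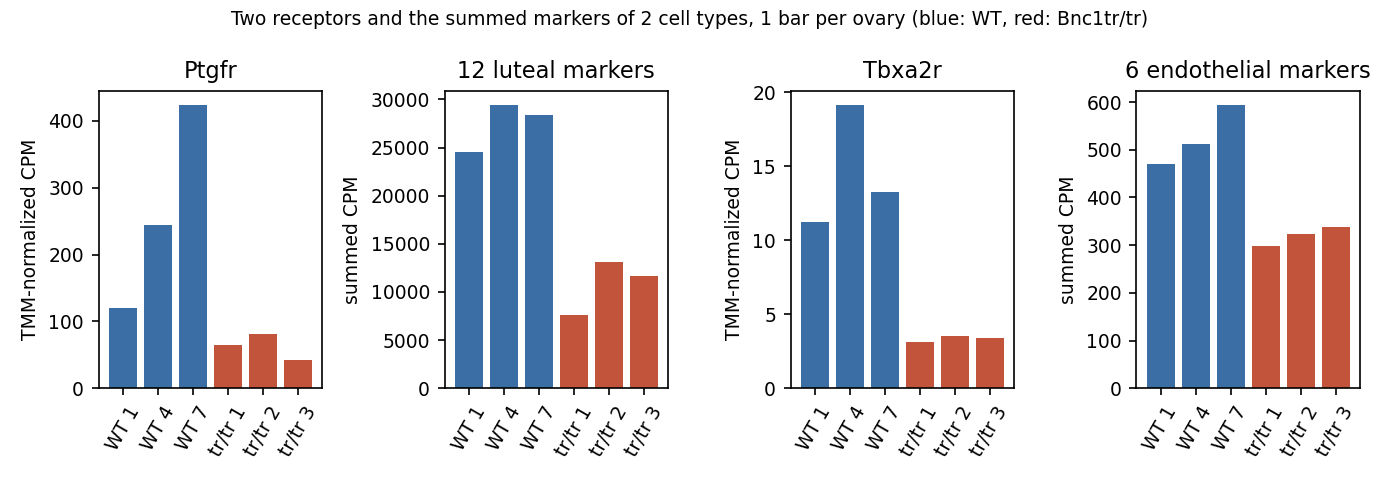
TMM-normalized CPM of Ptgfr and Tbxa2r and the summed CPM of 12 luteal and 6 endothelial markers (y axes, from 0) in each of the 6 ovaries, with WT in blue and Bnc1tr/tr in red. In all 4 panels the 3 Bnc1tr/tr bars are lower than every WT bar, and the WT bars of Ptgfr differ far more than those of the summed luteal markers.

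The receptors of prostaglandin E2 did not pass the test. Ptger2, which raises cAMP and takes part in cumulus expansion, stood at 15.3, 16.1 and 16.4 CPM in WT and at 15.2, 18.1 and 19.1 CPM in Bnc1tr/tr ovaries. Its values overlapped and were among the most even of the 9 genes, with a log2 fold change of 0.13 (SE 0.12, 95% interval -0.13 to 0.40, adjusted p = 0.526). Ptger4, which also raises cAMP, stood at 3.35, 4.23 and 4.001 CPM in WT and at 6.37, 4.66 and 4.83 CPM in Bnc1tr/tr ovaries. Every Bnc1tr/tr value was the higher, yet the log2 fold change of 0.45 (SE 0.20, 95% interval -0.01 to 0.92) did not pass (adjusted p = 0.217). The exons of Ptger4 overlap those of Gm15937 over 1015 bases and of Ttc33 over 82 bases on the other strand, so that reads there could belong to either gene. On the strand opposite to the gene, exons of Ptgfr also share 329 bases with Gm43618, those of Ptger2 246 bases with Gm17173 and those of Ptgs1 148 bases with Gm43621, and none of these 3 is listed in the count table.

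Levels can be compared between genes only per length of exon, and on that scale the order of the 9 genes changed with genotype mainly through Ptgfr. In WT ovaries Ptgis (46.1 ± 2.51 CPM per kb, SD, n = 3), Ptgfr (38.7 ± 22.6) and Ptges (32.2 ± 5.63) were the highest. The range of Ptgfr overlapped those of both others, and Ptgis lay above Ptges in each WT ovary. Below them came Hpgd (14.8 CPM per kb), Ptgds (10.05), Ptger2 (3.06), Ptgs1 (2.48), Ptger4 (0.580) and Ptgs2 (0.0316), each with a range apart from the next. In Bnc1tr/tr ovaries Ptgis (58.3 ± 3.53 CPM per kb) stood alone at the top, followed by Ptges (33.6) and Hpgd (20.6), whose ranges overlapped. Ptgfr came next at 9.33 CPM per kb and Ptgds at 3.85, a level not far from the overlapping Ptger2 (3.36) and Ptgs1 (3.15). Ptger4 (0.795) and Ptgs2 (0.0538) were again the lowest. The lengths are those of all annotated exons of a gene together, which can exceed the transcript that an ovary makes.

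Balances between steps of the pathway were compared as count ratios within each library, which do not depend on the scaling between libraries. Ptgis to Ptges was 0.25, -0.41 and -0.09 on the log2 scale in WT and 0.01, 0.49 and 0.09 in Bnc1tr/tr ovaries, and the means differed by 0.28 (exact permutation p = 0.4, adjusted over the 4 ratios 0.8). Hpgd to the sum of both cyclooxygenases, a ratio of RNA and not of enzyme activity, was 1.14, 1.58 and 1.36 in WT. In Bnc1tr/tr ovaries it was 2.25, 0.92 and 1.09, so that the means differed by 0.06 (exact permutation p = 1, adjusted 1). The ratio of Ptgs2 to Ptgs1 differed by 0.65 (exact permutation p = 0.4, adjusted 0.8) and rested on 1 to 10 counts of Ptgs2. For Ptgfr to Cyp11a1 the adjusted value was 0.933, and none of the 4 could have reached 0.05 with 3 ovaries against 3.

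The rest of the pathway was read from a list of 35 genes, of which 29 were tested. In Bnc1tr/tr ovaries 3 of these were higher, 4 were lower and 22 did not pass, and the median log2 fold change of the 29 was -0.003. That is 7 of 29 past the threshold, where 7.06% of all genes tested passed. Older symbols of the table are used where they differ, so that Prxl2b appears as Fam213b.

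Among the phospholipases that free arachidonic acid, 12 of 16 were tested, 3 rose and 1 fell. Of all genes tested, 2.88% were higher and 4.19% were lower in Bnc1tr/tr. Pla2g5, a secreted enzyme, fell from 78.8, 107 and 68.2 CPM in WT to 21.1, 27.8 and 32.0 CPM in Bnc1tr/tr ovaries, with a log2 fold change of -1.65 (SE 0.21, adjusted p = 0.00528), and it passed whichever ovary was left out. Pla2g4a, the cytosolic enzyme best known for feeding the cyclooxygenases, stood at 16.9 to 21.5 CPM in WT and 19.7 to 29.4 CPM in Bnc1tr/tr ovaries and did not pass (log2 fold change 0.24, adjusted p = 0.431). The 3 genes that rose were its relatives Pla2g4d, Pla2g4e and Pla2g4f, which lie side by side on chromosome 2 between 120166412 and 120314165. All 3 were at trace levels. Another relative, Pla2g4b, lies nearby on the same chromosome, at 120033417 to 120043030. It stood at 13.8 to 15.4 CPM over the 6 ovaries and did not pass (log2 fold change -0.003, adjusted p = 0.990).

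Pla2g4d rose from 0.517 to 0.595 CPM in WT to 1.81 to 2.22 CPM in Bnc1tr/tr ovaries (log2 fold change 1.83, adjusted p = 0.00650). Pla2g4e went from 0.302 to 0.818 CPM to 1.42 to 3.59 CPM (log2 fold change 2.25, adjusted p = 0.0325), and Pla2g4f from 0.372 to 0.604 CPM to 1.001 to 1.87 CPM (1.504, adjusted p = 0.0429). The genotypes did not overlap for any of the 3. Without WT replicate 4 none of them passed, with adjusted p of 0.0532 for Pla2g4d, 0.129 for Pla2g4e and 0.146 for Pla2g4f. Pla2g4e and Pla2g4f were lost also without WT replicates 1 (0.0505 and 0.119) and 7 (0.116 and 0.126) and without Bnc1tr/tr replicates 1 (0.0705 and 0.0937) and 3 (0.0867 and 0.128). With all 6 ovaries, limma-voom called 2 phospholipases as higher, missing Pla2g4f (adjusted p = 0.0521), and DESeq2 called 4. Of the oocyte markers, 3 of 10 (Gdf9, Bmp15 and Oosp1) were also higher in Bnc1tr/tr, where 2.88% of all genes tested were higher. The other 7 did not pass, with log2 fold changes from -0.07 to 0.77. The summed level of the 10 was 528 to 690 CPM in WT and 658 to 1007 CPM in Bnc1tr/tr ovaries. Of the granulosa markers 1 of 10 (Amh) was higher, and the other 9 did not pass, with log2 fold changes from -0.79 to 0.50. The part of the oocyte and granulosa markers in these rises was not tested.

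Of the 7 genes listed as other terminal synthases, 1 passed, where 7.06% of all genes tested passed. Fam213b, which makes prostaglandin F2α from prostaglandin H2, fell from 80.2, 90.6 and 67.0 CPM in WT to 21.9, 37.8 and 35.3 CPM in Bnc1tr/tr ovaries (log2 fold change -1.32, SE 0.21, adjusted p = 0.0119). All 3 WT values lay above all 3 Bnc1tr/tr values. The call was lost without WT replicate 4 (log2 fold change -1.22, adjusted p = 0.0748). The log2 fold changes of the other 6 genes of that list, Ptges2, Ptges3, Tbxas1, Hpgds, Cbr1 and Akr1b3, lay between -0.06 and 0.14. None of the 5 genes of breakdown and transport passed in edgeR or limma-voom, and 2 were lower at an unadjusted p under 0.05 and with DESeq2: Ptgr2, a prostaglandin reductase (log2 fold change -0.39, adjusted p = 0.0659), and Slco2a1, the prostaglandin transporter (-0.75, adjusted p = 0.0672).

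**Figure D3:**
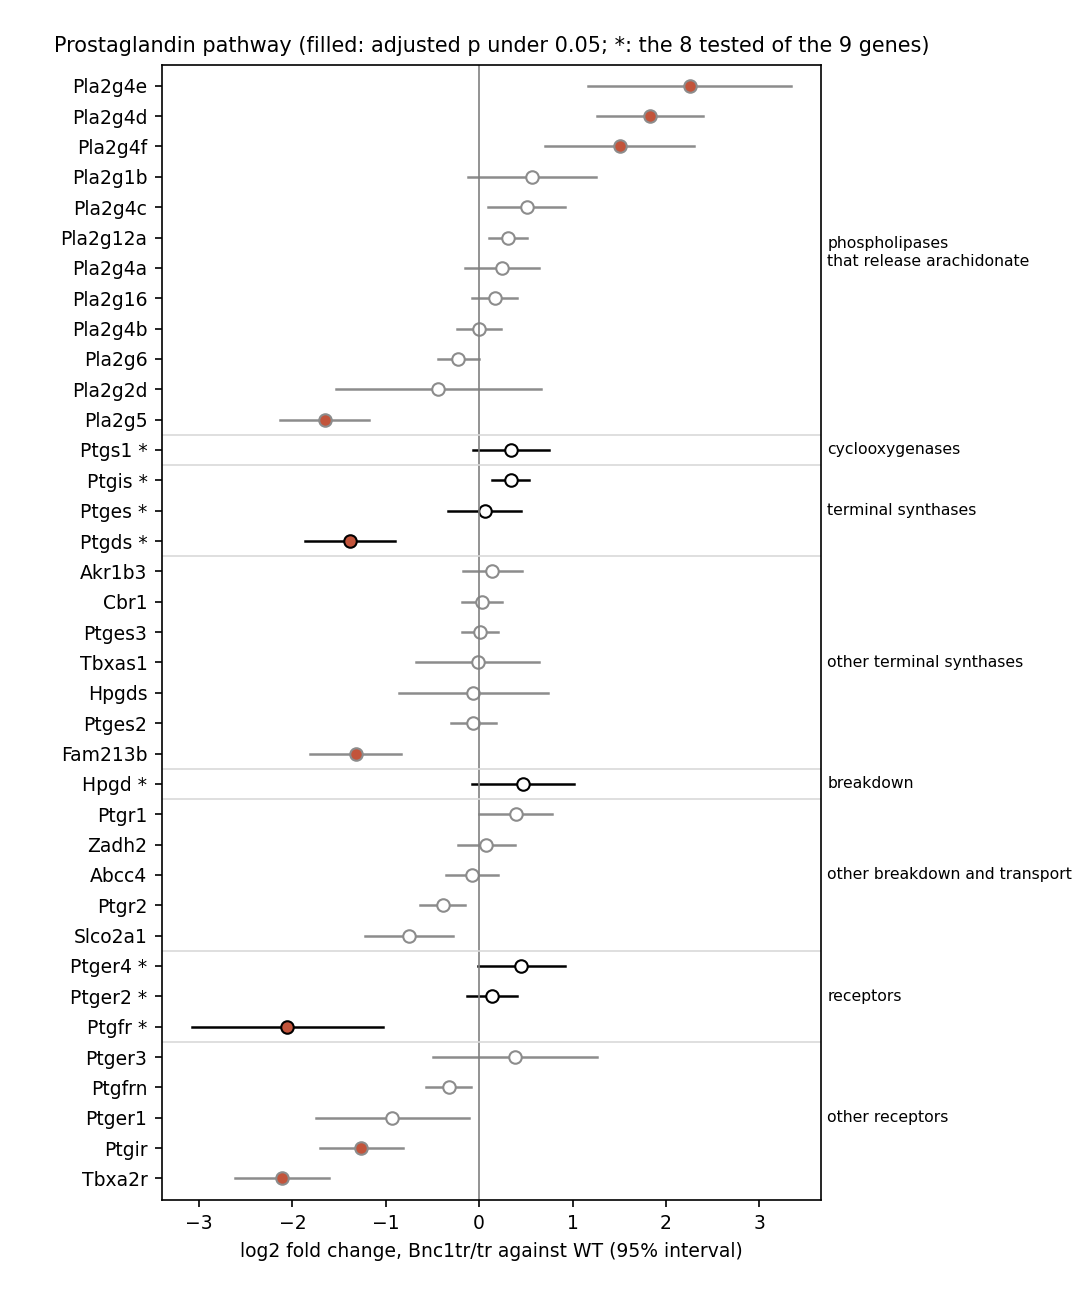
Log2 fold change of Bnc1tr/tr against WT (x axis) with its 95% interval for the tested genes of the pathway, grouped by role, with filled points for an adjusted p under 0.05 and an asterisk for those among the 9 genes. Filled points on the left are Pla2g5, Ptgds, Fam213b, Ptgfr, Ptgir and Tbxa2r, and on the right only Pla2g4d, Pla2g4e and Pla2g4f.

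Of the 7 other genes listed with the receptors, 5 were tested, 2 fell and none rose. Of all genes tested, 4.19% were lower and 2.88% were higher. At an unadjusted p under 0.05, a cutoff whose share of all genes was not counted, 4 were lower: Tbxa2r, Ptgir, Ptger1 and Ptgfrn. Of these, Ptgfrn (log2 fold change -0.32) is not one of the prostanoid receptors compared per kb below. Tbxa2r, the thromboxane receptor, stood at 11.3, 19.2 and 13.3 CPM in WT and at 3.13, 3.54 and 3.42 CPM in Bnc1tr/tr ovaries, with a log2 fold change of -2.11 (SE 0.22, adjusted p = 0.00284). Ptgir, the prostacyclin receptor, stood at 4.50, 4.44 and 4.14 CPM in WT and at 1.67, 1.73 and 2.04 CPM in Bnc1tr/tr ovaries, with a log2 fold change of -1.26 (SE 0.19, adjusted p = 0.0108). For both receptors every Bnc1tr/tr value lay under every WT value, and Tbxa2r varied more among the WT ovaries than among the Bnc1tr/tr ovaries. Tbxa2r passed whichever ovary was left out, whereas Ptgir was lost without WT replicate 4 (log2 fold change -1.25, adjusted p = 0.0679). Endothelial markers were also lower in Bnc1tr/tr ovaries: 5 of 6 were lower and none was higher, where 4.19% of all genes tested were lower. The summed level of the 6 was 471, 511 and 594 CPM in WT against 297, 322 and 337 CPM. None of the 6 was at 0 in any ovary. Within WT the order differed, with Ptgir highest in replicate 1, Tbxa2r in replicate 4 and the endothelial sum in replicate 7. None of 7 smooth muscle markers passed in edgeR (1 was higher at an unadjusted p under 0.05 and with DESeq2), and their summed level was 1826 to 2037 CPM in WT and 1893 to 2121 CPM in Bnc1tr/tr ovaries. The part of the endothelial and luteal markers in the differences of Tbxa2r, Ptgir, Pla2g5 and Fam213b was not tested.

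Per kb of exon, Ptgfr was the highest of 9 prostanoid receptors in each of the 6 ovaries. It made up 60.7%, 69.7% and 83.2% of their summed level in WT and 56.2%, 62.4% and 46.4% in Bnc1tr/tr ovaries, and these shares overlapped. The next receptor was Tbxa2r in every WT ovary (5.87, 9.98 and 6.92 CPM per kb) and Ptger2 in every Bnc1tr/tr ovary (2.93, 3.49 and 3.67 CPM per kb). The share of Ptger2 was 10.15%, 6.00% and 4.19% in WT and 17.1%, 18.03% and 27.1% in Bnc1tr/tr ovaries, and that of Ptger4 was 1.74%, 1.23% and 0.7998% against 5.59%, 3.62% and 5.37%. Shares add up to a fixed total, so those of the prostaglandin E2 receptors move with the level of Ptgfr.

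**Figure D4:**
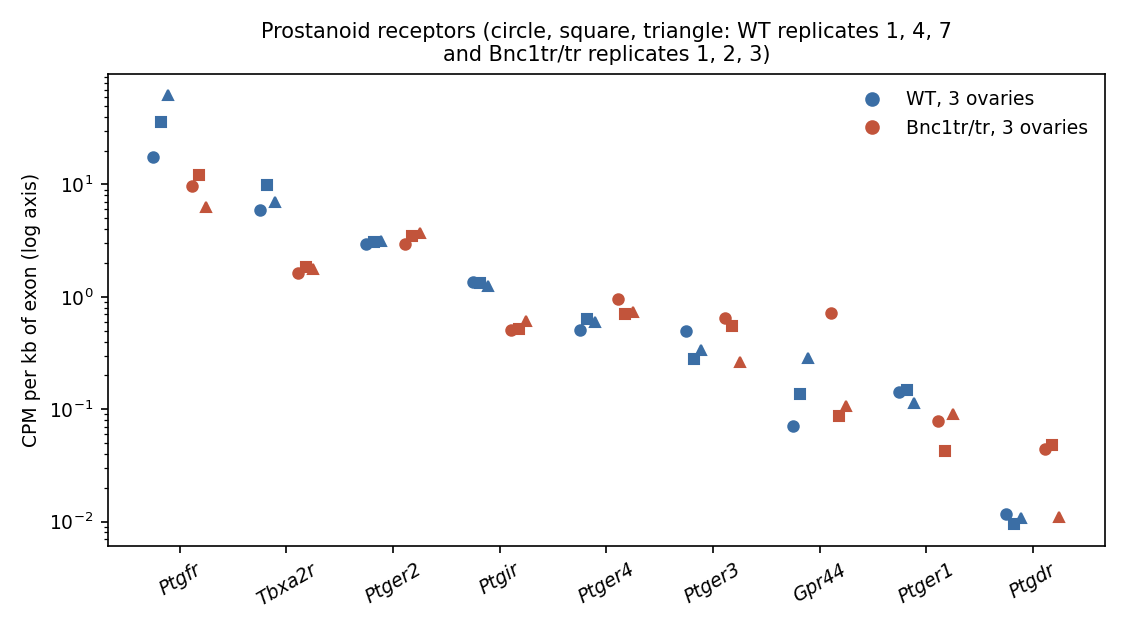
CPM per kb of exon (log y axis) of 9 prostanoid receptors (x axis, ordered by mean) in the WT (blue) and Bnc1tr/tr (red) ovaries, 1 symbol per library. Ptgfr is the highest in every ovary, Ptgfr, Tbxa2r, Ptgir and, at a trace level, Ptger1 show separate groups with WT above, and Ptger2 lies at about the same height in both.

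The genes whose log2 CPM followed Ptgfr most closely over the 6 ovaries, among 13080 genes with a mean of at least 5 CPM, were Zswim6 (Pearson r = 0.997), Cd83 (0.997) and Cyyr1 (0.996). Cd83, for example, stood at 10.3, 13.8 and 19.3 CPM in WT and at 7.68, 7.93 and 5.96 CPM in Bnc1tr/tr ovaries. For Ptgds they were Aplp2 (0.999), Col6a1 (0.999) and Fam126a (0.997), and Aplp2 stood at 941, 1167 and 1465 CPM in WT and at 569, 623 and 561 CPM in Bnc1tr/tr ovaries. These are descriptions over 6 libraries that share the difference between genotypes, and with so many genes some follow any pattern closely.

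Bnc1 itself had 375, 444 and 381 counts in WT and 527, 355 and 326 counts in Bnc1tr/tr ovaries (log2 fold change 0.12, SE 0.18, adjusted p = 0.733). Counts over the whole gene do not read the deletion, so they do not check the labels. Oviduct epithelial markers stood apart in WT replicate 1 (a summed 199 CPM) and Bnc1tr/tr replicate 3 (614 CPM), against 48.7 to 57.7 CPM in the other 4 ovaries, and Ovgp1, the oviductal glycoprotein, was at 106 and 423 CPM there. Without both of these ovaries, a setting chosen after seeing the data, Ptgfr (log2 fold change -2.19) and Ptgds (-1.56) were still called, both at an adjusted p of 0.0279, and Tbxa2r (-2.29, adjusted p = 0.0194) was too. The log2 fold changes of Ptgir (-1.34, adjusted p = 0.0778), Fam213b (-1.41, 0.0800), Pla2g4d (1.78, 0.0722), Pla2g4e (2.49, 0.108) and Pla2g4f (1.11, 0.255) kept their direction but missed the threshold in this comparison of 2 ovaries against 2. The markers of theca (5), surface epithelium (8), macrophages (8) and oviduct epithelium (9 tested) held no gene past the threshold in edgeR or limma-voom. At an unadjusted p under 0.05, 1 theca, 1 surface epithelium and 2 oviduct markers were higher and 1 macrophage marker was lower, and DESeq2 called 1 theca and 1 oviduct marker.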

How the data were processed

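Whole-ovary RNA was extracted with TRIzol by the authors, made into single-end Ion Total RNA-Seq libraries and read on an Ion Proton. The authors deposited raw counts, whole numbers of reads per gene symbol, without normalization. The submitters' processing notes name the builds mm10 and Sscrofa10.2 with no role, and the aligner, the counter and the use of strand are not given in the sources used here. Of the genes, 31717 had at least 1 count and 19423 passed filterByExpr (minimum count 10).

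Counts were scaled by TMM (factors 0.958 to 1.04) and compared in edgeR 4.0.16 (R 4.3.3; glmQLFit, glmQLFTest, two-sided, 3 ovaries per genotype, common biological coefficient of variation 0.186) with Benjamini-Hochberg adjustment over all genes tested and a threshold of 0.05. The study states no test for these counts. SEs were taken from the log2 fold change and F. Ratios used a pseudocount of 1 and the correlations log2 CPM with a prior count of 2. Exon lengths and positions came from GENCODE M21 on GRCm38. RefSeq promoter entries were found for 8 of the 9 genes.

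The text names all 9 genes, the pathway genes past the threshold, the 3 genes most like each called gene and up to 3 markers by list; others are marked as chosen after their values were seen or serve as comparison at a step of the pathway. The 9 genes and the lists were chosen with earlier results of these data known. Alternatives were DESeq2 size factors, library size, no filter, 10 counts in every ovary, DESeq2 1.42.0, limma-voom (limma 3.58.1), a robust fit and leaving out ovaries.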

Additional observations from a re-analysis of the deposited data

How the results depend on the processing

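The 8 tested genes and the 7 called pathway genes were refitted under 14 alternatives each. Tbxa2r and Pla2g5 passed under all 14 and Ptgds under 13. Ptgfr kept its sign under all 14 and passed under 8; its log2 fold change was -2.05 in the robust edgeR fit, where it missed the threshold, and -2.41 to -1.53 with 1 ovary left out. The count of called genes among the 9 was 1 in the robust fit and 0 to 2 with 1 ovary left out. The log2 fold change of Ptgds was -1.58 to -1.18 with 1 ovary left out. Ptgis was called with library sizes only (0.44) and DESeq2 (0.34). Ptges changed sign without the 2 ovaries rich in oviduct markers (-0.067) and ranged from -0.088 to 0.186 with 1 ovary left out. The ratio of Hpgd to the cyclooxygenases differed by -0.36 to 0.31 and that of Ptgfr to Cyp11a1 by -0.73 to 0.080 with 1 ovary left out, so neither had a stable sign, and a pseudocount of 0.5 turned none of the 4 ratios. Over all genes, 1372 passed, against 2420 with DESeq2, 304 without both oviduct-rich ovaries and 320 (without WT replicate 4) to 1282 (without Bnc1tr/tr replicate 2) with 1 ovary left out. Those fits had fewer ovaries; the cause of the other shifts was not tested. Library sizes in place of TMM moved the median log2 fold change of all genes from 0.02 to 0.12 and the lower genes' share of those called from 59.3% to 35.6%. At 1 to 10 counts per library, as for Ptgs2, depth limits any comparison. No paired analysis was possible because the labels of the genotypes share only replicate number 1 and give no litter.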

Other observations

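Among the listed genes of the pathway, 6 had too few counts for the test. The prostaglandin D2 receptor Ptgdr stood at 0.0302 to 0.0372 CPM in WT and at 0.142, 0.154 and 0.0352 CPM in Bnc1tr/tr ovaries. Gpr44 (Ptgdr2), the other receptor for that prostaglandin, stood at 0.186, 0.363 and 0.759 CPM in WT and at 1.89, 0.231 and 0.282 CPM in Bnc1tr/tr ovaries, with its highest value in Bnc1tr/tr replicate 1. Pla2g2a, a secreted phospholipase that C57BL/6 mice are known to lack, had 0 counts in all 6 ovaries, which allows up to 3 counts in each, for counting error only. Pla2g2e, Pla2g2f and Pla2g10 did not exceed 0.106 CPM in any ovary.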
